A study of Mus musculus with 24 samples.

Results

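Platelets carry their effector proteins in granules and keep their disc shape with a ring of microtubules. Megakaryocytes, their parent cells in the bone marrow, make these proteins or their mRNAs and pass them on, so that whole blood RNA holds platelet transcripts although platelets have no nucleus. The alpha-granule releases chemokines (Pf4, Ppbp), adhesive and clotting proteins (Vwf, F5, Thbs1, Sparc) and brings receptors to the surface (Selp, Treml1), and the beta-tubulin Tubb1 builds the marginal band. The 9 genes were taken by name, with every non-control probe that carries a gene's name, and all 9 were among the 15785 genes tested, of 29711 genes with a probe.

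The series measured blood RNA on 24 one-colour arrays. The mice were C57BL/6J males with the genotype labels Gadd45aWT and Gadd45aKO, bled by cardiac puncture 24 h after 0 or 7 Gy of x-rays. The groups were Gadd45aWT at 0 Gy (5 arrays), Gadd45aWT at 7 Gy (5), Gadd45aKO at 0 Gy (5) and Gadd45aKO at 7 Gy (9), and the labels give no age of the mice. At 0 Gy the Gadd45a probe read 0.67 ± 0.24 (SD, n = 5) on Gadd45aWT arrays, and the Gadd45aKO arrays were at 0.52 ± 0.16 (SD, n = 4). At 7 Gy it read -1.19 ± 0.32 (SD, n = 5) and 0.02 ± 0.34 (SD, n = 9), respectively, so the transcript goes against the label. Where the deletion lies relative to the probe is not given in the sources used here, and the arrays are called KO-labelled. Levels are log2 processed signals from which the 75th percentile of the array was subtracted, a relative scale on which less RNA per cell and fewer cells of a type cannot be told apart.

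Several arrays stood apart. Replicates 1 and 4 of the KO-labelled 0 Gy group differed by less than repeat spots within an array (ratio 0.976) and were counted as 1 sample, which left 4 in that group. Other pairs came close and were counted as separate samples. Ratios were 1.21 and 1.24 in WT at 7 Gy (replicates 3 and 4, and 1 and 2). They were 1.30 in WT at 0 Gy (replicates 2 and 3) and 1.31 in KO-labelled arrays at 7 Gy (replicates 1 and 2). Counts with such arrays averaged are given with the processing alternatives. Repeat spots varied by 17.0% on WT 0 Gy replicate 1, 18.4% on KO-labelled 0 Gy replicate 2 and 15.1% on KO-labelled 7 Gy replicate 3, against 5.06% to 9.34% on the other arrays. The share of spots well above background ran from 25.9% to 51.4%. Replicates 1 to 5 of each group lay on slides 1 to 5, 1 array of each group on a slide, and KO-labelled 7 Gy replicates 6 to 9 on slide 6. All 8 B cell markers tested fell after 7 Gy in both genotype labels, while of 14 erythroid markers 0 rose and 9 fell in WT, and 4 rose and 6 fell in KO-labelled arrays. Hepatocyte markers moved the other way: their summed level was 0.15 to 0.75 in WT at 0 Gy, 3.38 and 3.41 on WT 7 Gy replicates 1 and 2, 7.19 to 7.34 on WT 7 Gy replicates 3 to 5, and, among KO-labelled arrays, -0.28 to 2.65 without and 2.46 to 3.37 with irradiation.

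The 9 genes were read by 13 probes, 1 each except for F5 and Vwf (2 each) and Sparc (3). The brightest probe of a gene gave its level. In mm9, Ppbp (chr5:91198970-91199029) and Pf4 (chr5:91202275-91202334) lay beside each other, as did Selp (chr1:166079660-166079719) and F5 (chr1:166150216-166150275). The other probes that gave levels were at chr2:117952585-117952644 (Thbs1), chr2:174283277-174283336 (Tubb1), chr6:125636551-125636610 (Vwf), chr11:55208939-55208998 on the minus strand (Sparc) and chr17:48506365-48506424 (Treml1). Exon and UTR annotation of mm9 was not used here. The probes of the genes with more than 1 are shown over 30 of their 60 bases, because they differed in what they read. Capitals mark the run of at least 16 bases that a probe shares with a probe of another gene on the array.
F5, probe that gave the level: tgctgcCAAAACAAAACAACAACAGCAACA
F5, other probe: gaagagcgggaagagcgtgatgtattttac
Vwf, probe that gave the level: caagtgaggcctgtgcagctacagcggatt
Vwf, other probe: tagttaaacagaacaacagtgaagggcgga
Sparc, probe that gave the level: ggctgttccgcctggggataaggtgctaac
Sparc, second probe: gaagagcttgacaaGTCTTTCAAAATAAAA
Sparc, other probe: tttaacacatgaagaagccagttcctgggc
The F5 probe that gave the level shares such a run with 3 other probes, and the second Sparc probe with 1. The other F5 probe spans 2189 bases of the genome with its 60 bases (chr1:166139728-166141916) and so lies across a splice junction.

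The 250 bases before the start of transcription are shown for the neighbouring chemokine genes, which differ in the letters searched, and for Selp and Tubb1 as a receptor and a cytoskeleton gene with a match. The sequences are RefSeq's, build GRCm38.p6, plus strand, for chr5:90772185-90772434 (Pf4), chr5:90768268-90768517 (Ppbp), chr1:164115014-164115263 (Selp) and chr2:174450345-174450594 (Tubb1). Capitals mark matches to AGGAAG or CGGAAG, letters that ETS factors such as Fli1 bind, read on both strands.
Pf4: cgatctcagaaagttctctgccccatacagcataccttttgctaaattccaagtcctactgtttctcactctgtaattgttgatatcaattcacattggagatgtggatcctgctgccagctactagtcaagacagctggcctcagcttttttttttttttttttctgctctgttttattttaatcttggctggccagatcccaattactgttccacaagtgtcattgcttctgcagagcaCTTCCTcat
Ppbp: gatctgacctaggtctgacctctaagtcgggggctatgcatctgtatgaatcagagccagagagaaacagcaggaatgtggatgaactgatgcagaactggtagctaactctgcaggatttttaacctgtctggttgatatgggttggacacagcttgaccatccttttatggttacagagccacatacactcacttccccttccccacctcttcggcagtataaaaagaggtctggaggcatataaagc
Selp: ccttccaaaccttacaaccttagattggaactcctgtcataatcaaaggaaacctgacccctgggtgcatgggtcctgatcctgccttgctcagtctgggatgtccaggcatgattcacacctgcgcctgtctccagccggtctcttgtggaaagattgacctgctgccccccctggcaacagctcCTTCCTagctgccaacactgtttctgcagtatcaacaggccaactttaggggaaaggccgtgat
Tubb1: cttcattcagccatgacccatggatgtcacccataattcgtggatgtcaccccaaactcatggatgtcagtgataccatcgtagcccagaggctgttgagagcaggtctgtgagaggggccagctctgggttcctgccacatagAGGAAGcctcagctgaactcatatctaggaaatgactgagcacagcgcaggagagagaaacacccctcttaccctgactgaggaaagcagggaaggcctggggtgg
The promoter table held 7 of the 9 genes; Thbs1 and Vwf were not matched. Over the 300 bases from 250 before to 50 after the start, 4 of these 7 (F5, Pf4, Selp and Tubb1) held the ETS letters, as did 46.5% of all 32851 promoters of this length. AGATAA or TGATAA, letters bound by GATA factors such as Gata1, stood in 1 of the 7, against 18.6% of all promoters. That match is in Pf4, after the RefSeq start, in ggcaggcagtgaAGATAAaacgtgct (bases 25 to 50 from the start). TGAGTCA on either strand, the core that NF-E2 binds, was found in 0 of the 7 and in 5.20% of all promoters. No match says only that these letters are not in this window.

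Transcripts of the platelet granule and cytoskeleton genes were higher after 7 Gy. In WT, 7 of the 9 rose at a limma adjusted p under 0.05 and 0 fell, against 10.1% of all genes tested that rose and 13.6% that fell. In KO-labelled arrays 8 of the 9 rose and 0 fell, against 12.4% and 34.5% of all genes. The median change of the 9 was 1.02 (log2) in WT, beside a median of -0.05 over all genes, and 1.75 in KO-labelled arrays, beside -0.26. With the 75th percentile taken over all probes, the KO-labelled calls over all genes were 3067 higher and 3492 lower, the median of all genes was 0.07, and that of the 9 genes was 2.08. Centred on the array median instead, 2 of the 9 passed in WT and 8 in KO-labelled arrays. With that scaling 703 of all 15785 genes rose and 1119 fell in WT, and 1582 and 2560 in KO-labelled arrays. The arrays of the 2 doses did not overlap for 8 of the 9 genes in WT, against 28.6% of all genes in either direction, and for 7 of the 9 in KO-labelled arrays, against 24.5%. All 9 changes were above 0 in both genotype labels under each of the other settings tried.

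**Figure D1:**
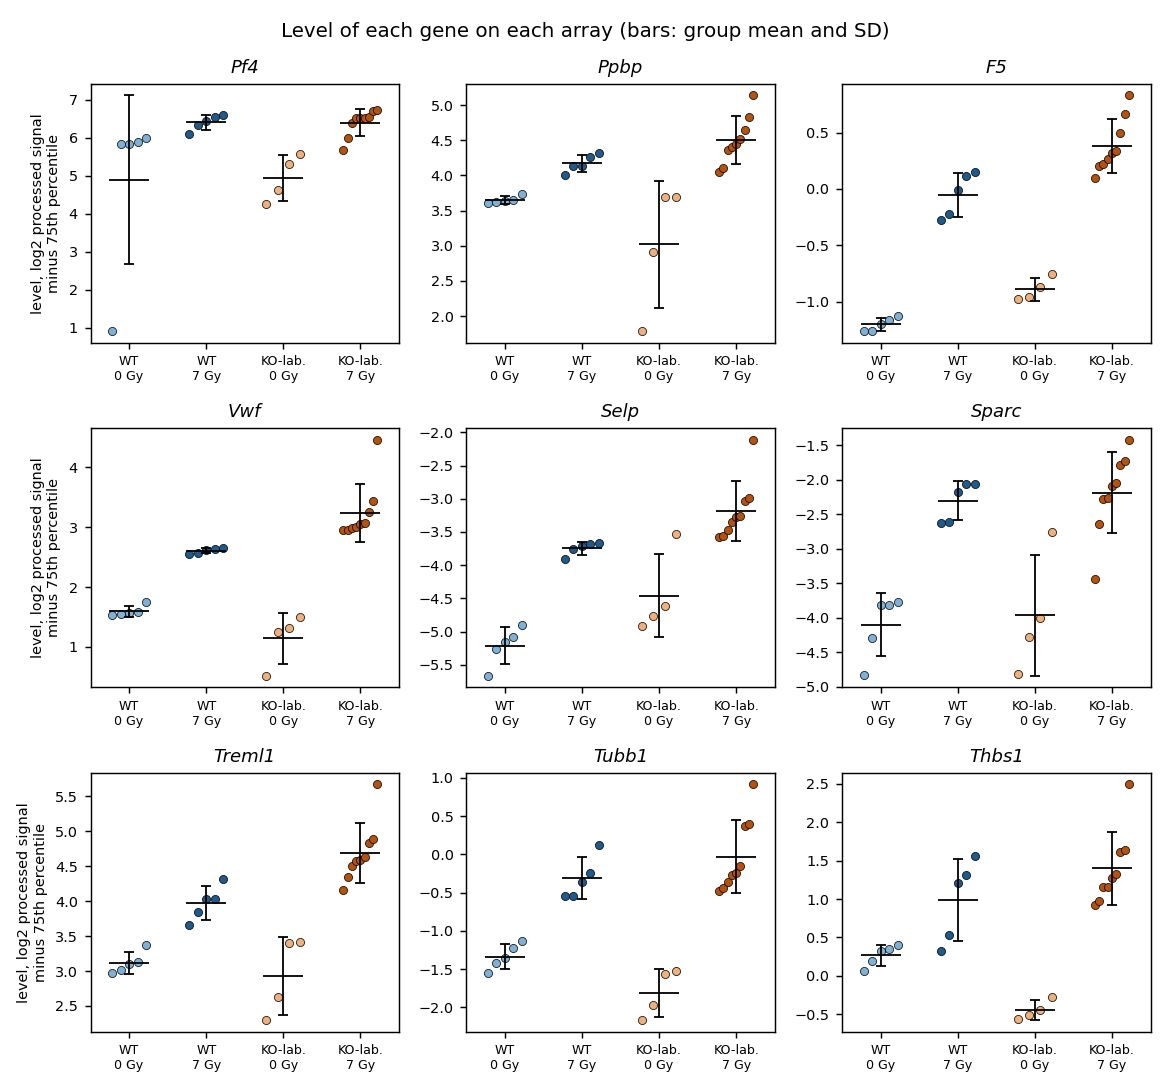
Level of each of the 9 genes on each array (y axis, log2 level on the relative scale; scales differ between panels) in the 4 groups, with the group mean and SD. The irradiated groups lie above the unirradiated ones in most panels, 1 WT 0 Gy array reads 0.92 for Pf4, and the 5 WT 7 Gy arrays of Thbs1 spread from 0.33 to 1.56.

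Pf4, the chemokine CXCL4 that binds heparin, had processed signals up to 182066 and no saturated spot. In WT its level was 0.92, 5.89, 5.83, 5.99 and 5.83 at 0 Gy (replicates 1 to 5) and 6.59, 6.54, 6.11, 6.33 and 6.45 at 7 Gy. The single low array apart, the groups did not overlap and were narrow. The change was 1.51 ± 0.64 (SE; limma adjusted p = 0.0953), and without WT 0 Gy replicate 1 it was 0.52 ± 0.24 (SE; limma adjusted p = 0.144; range over the other settings 0.0666 to 0.314). The one Pf4 spot on that array had a processed signal of 1490, against 64207 to 103976 on the other WT 0 Gy arrays, with 61 pixels, a pixel CV of 7.30% and no outlier flag. On that array 46 of the 15785 genes tested were as far below the other WT 0 Gy arrays as Pf4, and 111 differed from them by 4 or more on the log2 scale; the part of that array's noise in the Pf4 reading was not tested.

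In KO-labelled arrays Pf4 was 5.56 (replicates 1 and 4), 4.25, 5.32 and 4.63 at 0 Gy, and from 5.68 to 6.72 with a median of 6.53 at 7 Gy. The groups did not overlap. The change of 1.46 ± 0.61 (SE) had a limma adjusted p of 0.0525. The 4 groups share 1 estimate of the spread, and without WT 0 Gy replicate 1 the change was again 1.46, with an SE of 0.22 and a limma adjusted p of 1.49e-05. The call was also made without KO-labelled 0 Gy replicate 1 or KO-labelled 7 Gy replicate 9, and in 7 of 16 other settings, such as the 75th percentile over all probes (1.79; limma adjusted p = 0.0220) and only both KO-labelled groups in the fit (limma adjusted p = 0.000777; range over the settings 9.01e-05 to 0.248). Within slides 1 to 5, Pf4 was 0.27 to 5.67 higher after 7 Gy in WT and 0.68 to 2.30 higher in KO-labelled arrays.

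Ppbp, whose product is cut to the neutrophil chemokine NAP-2 (CXCL7), lies beside Pf4. Its WT levels were 3.63, 3.65, 3.62, 3.74 and 3.63 at 0 Gy and 4.0, 4.14, 4.13, 4.26 and 4.32 at 7 Gy. Both groups were narrow and apart, yet the change of 0.52 ± 0.27 (SE) did not pass in the fit of all 4 groups (limma adjusted p = 0.184). With only both WT groups in the limma fit the adjusted p was 0.00277, and Ppbp was called with quantile normalization too (range over the other settings 0.00277 to 0.711). KO-labelled arrays read 3.70, 1.79, 3.69 and 2.91 at 0 Gy, and 4.05 to 5.14 with a median of 4.45 at 7 Gy. There Ppbp rose by 1.48 ± 0.26 (SE; limma adjusted p = 6.56e-05). Without KO-labelled 0 Gy replicate 2, the low array at 1.79, the rise was 1.07.

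Vwf, the multimeric ligand that tethers platelets to damaged vessel walls and carries factor VIII, varied little in WT. Its levels were 1.74, 1.58, 1.54, 1.57 and 1.53 at 0 Gy and 2.61, 2.64, 2.55, 2.66 and 2.57 at 7 Gy. All 5 irradiated arrays were higher than all 5 others, and Vwf rose by 1.01 ± 0.23 (SE; 2.02-fold; limma adjusted p = 0.00265). KO-labelled arrays read 1.50, 0.52, 1.31 and 1.25 at 0 Gy, and 2.95 to 4.46 with a median of 3.05 at 7 Gy. These groups were further apart than in WT, with replicate 6 alone above 3.44, and the rise was 2.10 ± 0.22 (SE; 4.28-fold; limma adjusted p = 1.68e-07).

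The other Vwf probe, named by a different transcript, rose in KO-labelled arrays by 1.32 and read 0.48 higher in WT (limma adjusted p = 0.130), so the call in WT rests on the first probe. Endothelium also makes Vwf and Selp. Of 16 endothelial markers 7 were tested, and Cdh5, Tek, Emcn and Erg were not well above background on any array. The summed level of the 7 was 1.46 to 2.19 in WT at 0 Gy and 1.66 to 2.81 at 7 Gy, and 0.36 to 1.93 and 1.03 to 2.99 in KO-labelled arrays. Their mean level, in which each marker weighs the same, did not overlap between doses: it went from between -4.03 and -3.68 to between -3.0 and -2.38 in WT, and from between -4.46 and -3.83 to between -3.34 and -2.51 in KO-labelled arrays. Of the 7 markers, 4 rose in WT and 5 in KO-labelled arrays. Their part in these results was not tested.

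F5, clotting factor V, the cofactor of factor Xa that the liver makes as well, had the smallest error. Its WT levels were -1.26, -1.16, -1.26, -1.20 and -1.13 at 0 Gy and -0.28, -0.22, -0.01, 0.11 and 0.15 at 7 Gy. The gap between the groups was wider than either, and F5 rose by 1.15 ± 0.15 (SE; limma adjusted p = 3.26e-06). KO-labelled arrays read -0.97, -0.75, -0.96 and -0.87 at 0 Gy, and 0.10 to 0.83 with a median of 0.32 at 7 Gy. The rise there was 1.27 ± 0.14 (SE; limma adjusted p = 2.64e-07). The probe across the splice junction rose too, by 1.29 in WT and 1.95 in KO-labelled arrays.

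Thbs1, thrombospondin 1, an adhesive glycoprotein that binds CD36 and CD47, had WT groups that overlapped. Its levels were 0.07, 0.33, 0.20, 0.35 and 0.41 at 0 Gy and 0.33, 0.53, 1.21, 1.31 and 1.56 at 7 Gy. Replicates 1 and 2 at 7 Gy lay at or just above the unirradiated arrays, and replicates 3 to 5 well above them. The rise was 0.72 ± 0.26 (SE; limma adjusted p = 0.0460). Replicates 3 to 5 were the WT arrays with high hepatocyte markers, and without them Thbs1 differed by 0.16 (limma adjusted p = 0.846; range over the other settings 0.00443 to 0.846). The call was lost in 15 of the 24 fits that each left out 1 array: any of the 5 WT 0 Gy arrays, WT 7 Gy replicates 3, 4 or 5, KO-labelled 0 Gy replicates 3 or 5, and KO-labelled 7 Gy replicates 1, 2, 4, 7 or 8. In KO-labelled arrays Thbs1 was -0.44, -0.56, -0.51 and -0.27 at 0 Gy, and 0.92 to 2.49 with a median of 1.28 at 7 Gy, groups far apart, and it rose by 1.84 ± 0.24 (SE; limma adjusted p = 2.90e-06).

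**Figure D2:**
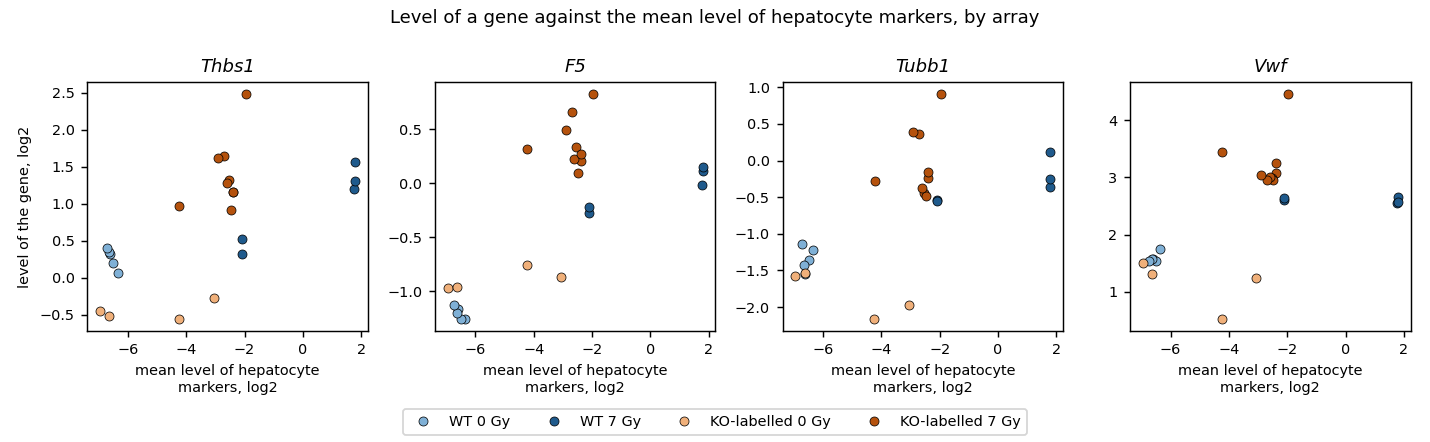
Level of Thbs1, F5, Tubb1 and Vwf (y axis, log2) against the mean level of 18 hepatocyte markers (x axis, log2), 1 point per array and colours for the 4 groups. The 3 WT 7 Gy arrays at the right of each panel are also the highest WT 7 Gy arrays for Thbs1, F5 and Tubb1, while all 5 WT 7 Gy arrays read 2.55 to 2.66 for Vwf. Of the genes not shown, Treml1, Sparc and Selp were also highest on these 3 of the WT 7 Gy arrays, and Pf4 and Ppbp were not.

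Hepatocyte markers were compared further because F5 is a liver product. Of 18 tested, 17 rose in WT and 12 in KO-labelled arrays, and none of those with a probe was below background on every array. Without WT 7 Gy replicates 3 to 5, which leaves 2 irradiated WT arrays, 2 of the 9 genes rose in WT, F5 by 0.95 and Selp by 1.38. Of all 15785 genes, 755 rose and 893 fell in that fit, against 1588 and 2143 in the main fit. The rest of the 9 genes then read 1.68 (Pf4), 0.42 (Ppbp), 1.03 (Vwf), 1.49 (Sparc), 0.63 (Treml1), 0.79 (Tubb1) and 0.16 (Thbs1) higher. The part of hepatocyte RNA in the change of each gene was not tested.

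Sparc, a collagen-binding matrix protein stored in alpha-granules, was dim. Its WT levels were -3.81, -4.29, -3.76, -3.81 and -4.82 at 0 Gy and -2.62, -2.60, -2.06, -2.06 and -2.17 at 7 Gy. The groups did not overlap, and Sparc rose by 1.80 ± 0.35 (SE; 3.47-fold; limma adjusted p = 0.000545). KO-labelled arrays read -4.28, -2.75, -4.01 and -4.81 at 0 Gy, and -3.43 to -1.42 with a median of -2.09 at 7 Gy. Replicate 2 at 0 Gy lay above replicate 6 at 7 Gy, so these groups overlapped, and the rise was 1.77 ± 0.33 (SE; limma adjusted p = 0.000152).

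Only the brightest of the 3 Sparc probes showed this. The second was well above background on 7 of 24 arrays and the remaining one on 21, and neither passed in any comparison. Fibroblasts are a rich source of Sparc. Of 15 fibroblast and matrix markers 6 were tested, 3 of them rose in WT and 3 in KO-labelled arrays, with Dcn, decorin, the largest at 3.21 and 3.49. Col5a1, Lum, Pdgfra, Pdgfrb, Postn, Mmp2 and Dpt were not well above background on any array. The summed level of the 6 was 0.83 to 1.39 in WT at 0 Gy and 1.08 to 1.63 at 7 Gy, and 0.60 to 1.36 and 0.29 to 1.57 in KO-labelled arrays. Their mean level was between -5.16 and -4.20 without and between -3.55 and -3.06 with irradiation in WT, which did not overlap, and between -5.31 and -3.67 and between -4.56 and -2.85 in KO-labelled arrays, which did. Their part in the Sparc result was not tested.

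Selp, P-selectin, the granule membrane receptor that binds PSGL-1 on leukocytes, was read close to background. Its probe was well above background on 23 of the 24 arrays, all but KO-labelled 0 Gy replicate 2. WT levels were -5.66, -5.08, -4.91, -5.15 and -5.26 at 0 Gy and -3.75, -3.90, -3.68, -3.67 and -3.71 at 7 Gy. No irradiated WT array came near an unirradiated one, and Selp rose by 1.47 ± 0.26 (SE; 2.77-fold; limma adjusted p = 0.000195). KO-labelled arrays read -4.77, -4.62, -4.92 and -3.54 at 0 Gy, and -3.58 to -2.11 with a median of -3.28 at 7 Gy. Replicate 5 at 0 Gy lay within the irradiated range, and the rise was 1.28 ± 0.25 (SE; limma adjusted p = 0.000205).

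Treml1, TLT-1, an alpha-granule receptor of platelets and megakaryocytes, separated the doses in WT as well. Its levels were 2.97, 3.02, 3.13, 3.10 and 3.37 at 0 Gy and 3.65, 3.84, 4.03, 4.03 and 4.31 at 7 Gy. The groups were apart by less than in Vwf or Selp, and Treml1 rose by 0.85 ± 0.25 (SE; limma adjusted p = 0.0133). In KO-labelled arrays it was 3.41, 2.30, 3.40 and 2.63 at 0 Gy, and 4.16 to 5.67 with a median of 4.58 at 7 Gy. There it rose by 1.75 ± 0.23 (SE; 3.37-fold; limma adjusted p = 2.98e-06).

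Tubb1, beta-1 tubulin, the tubulin of the platelet marginal band, read -1.22, -1.55, -1.36, -1.42 and -1.14 in WT at 0 Gy and -0.54, -0.55, -0.36, -0.25 and 0.12 at 7 Gy. It rose by 1.02 ± 0.24 (SE; 2.03-fold; limma adjusted p = 0.00265), and the groups did not overlap. KO-labelled arrays read -1.57, -2.17, -1.53 and -1.97 at 0 Gy, and -0.48 to 0.91 with a median of -0.24 at 7 Gy. The rise of 1.78 ± 0.22 (SE; limma adjusted p = 1.69e-06) again separated every irradiated array from every other.

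**Figure D3:**
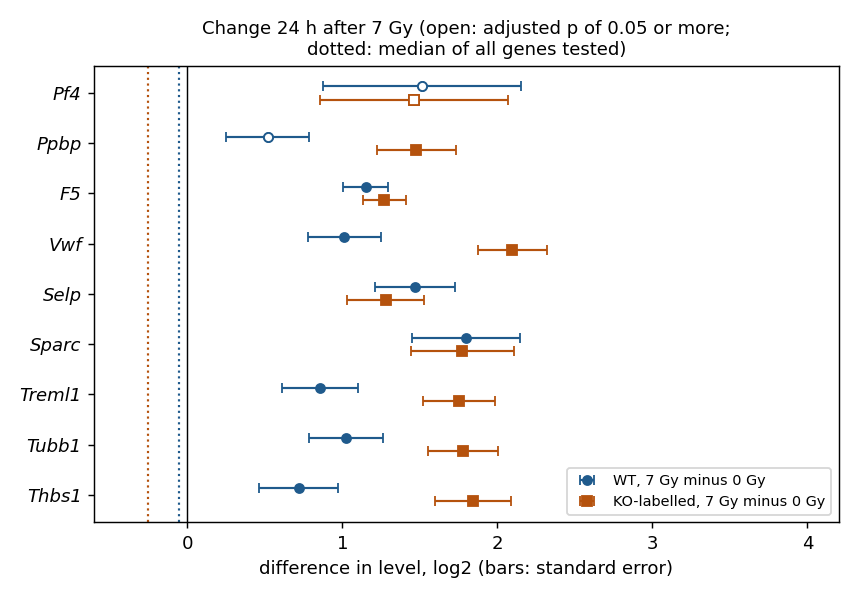
Difference in level between 7 Gy and 0 Gy (x axis, log2, with standard error) for each of the 9 genes in WT (circles) and KO-labelled arrays (squares), with dotted lines at the median of all genes. Pf4, F5, Selp and Sparc lie at nearly the same place for both genotype labels. Ppbp, Vwf, Treml1, Tubb1 and Thbs1 lie apart, and of these the difference was called for Vwf and Thbs1. Open symbols (Pf4 in both, Ppbp in WT) did not pass.

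Slides were set apart in a further fit, since each of slides 1 to 5 held all 4 groups. Within every one of the 5 slides each of the 9 genes was higher at 7 Gy than at 0 Gy, in WT and in KO-labelled arrays. The smallest such difference was 0.20 (Thbs1 in WT) and, outside Pf4, the largest was 3.03 (Sparc in KO-labelled arrays). The near-identical KO-labelled 0 Gy replicates 1 and 4 lie on slides 1 and 4, so 4 distinct KO-labelled samples at 0 Gy stand behind the 5 slides. With slide as a block, 7 of the 9 rose in WT and 8 in KO-labelled arrays. Of all 15785 genes, 1853 rose and 2563 fell in WT with this block, and 3514 rose and 5984 fell in KO-labelled arrays. How many of all genes went in 1 direction on all 5 slides was not counted, here or in the slide comparisons below.

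Whether the genotype label changed the radiation response was tested as the difference between the responses. It was larger in KO-labelled arrays for 2 of the 9 genes, against 3.21% of all genes with a higher difference and 11.9% with a lower one. For Vwf the responses differed by 1.08 ± 0.32 (SE; limma adjusted p = 0.0276) and for Thbs1 by 1.13 ± 0.35 (SE; limma adjusted p = 0.0360). The other Vwf probe gave 0.84 ± 0.31 (SE, limma adjusted p = 0.0669), so the Vwf call rests on the brightest probe. Within slides 1 to 5, with the same 4 distinct KO-labelled 0 Gy samples, the difference was above 0 on each, at 0.48 to 1.40 for Vwf and 0.42 to 1.69 for Thbs1. The difference was also above 0 on each slide for Treml1 (0.05 to 1.45) and Tubb1 (0.02 to 1.08), which were not called. With slide as a block it was 0.76 for Vwf (limma adjusted p = 0.0615; range over the other settings 0.0101 to 0.329) and 0.99 for Thbs1 (limma adjusted p = 0.0320; range 0.00568 to 0.296). With that block 1740 of all 15785 genes had a higher difference and 3386 a lower one. The Vwf call was lost without KO-labelled 0 Gy replicate 2, where the difference was 0.88. The Thbs1 call was lost without any one of KO-labelled 0 Gy replicates 2, 3 or 5, WT 0 Gy replicates 2 to 5 or WT 7 Gy replicates 1 or 2, at differences of 0.96 to 1.18.

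For the other 7 genes the difference did not pass, and its unadjusted 95% interval was 0.19 to 1.73 for Ppbp, 0.20 to 1.60 for Treml1, 0.08 to 1.43 for Tubb1, -0.30 to 0.54 for F5, -0.93 to 0.55 for Selp, -1.02 to 0.98 for Sparc and -1.88 to 1.78 for Pf4. Ppbp was called without KO-labelled 0 Gy replicate 3, and Treml1 without that array or without KO-labelled 7 Gy replicate 9. The other F5 probe gave 0.66 ± 0.28 (SE; limma adjusted p = 0.115) and a fit on the authors' deposited log2 values gave 0.83 ± 0.43 (SE; limma adjusted p = 0.268), both above that interval. Over all genes the sign of this comparison turned with the scaling, from 506 higher and 1874 lower to 893 higher and 580 lower with the 75th percentile over all probes, under which 2 of the 9 genes were called higher. Markers of other cell types differed between the responses too: of 14 erythroid markers 5 were higher and 0 lower in KO-labelled arrays (median 1.21), and 12 of 18 hepatocyte (median -4.82), 4 of 12 neutrophil and 4 of 10 T cell markers were lower, with 0 higher. Their part in the results for the 9 genes was not tested.

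The groups that make up this difference were compared in pairs. At 0 Gy, 0 of the 9 genes differed between KO-labelled and WT arrays by limma (3 of the 9 at an unadjusted p under 0.05), against 0.209% of all genes higher and 0.0824% lower. Thbs1 was 0.71 ± 0.27 (SE) lower in KO-labelled arrays, from -0.56 to -0.27 against 0.07 to 0.41, groups that did not overlap (limma adjusted p = 0.394), and it was lower on each of slides 1 to 5, with differences of -0.88 to -0.52. Vwf read -0.45 and F5 0.31 against WT, also without overlap, and the other F5 probe read -0.10. These 3 of the 9 genes compare with 10.6% of all genes whose groups did not overlap at 0 Gy. Pf4 read 0.05, and without the low WT array -0.95 (limma adjusted p = 0.205).

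At 7 Gy, 3 of the 9 were higher in KO-labelled than in WT arrays and 0 lower, against 4.58% of all genes higher and 17.8% lower. They were F5 by 0.43 ± 0.13 (SE; limma adjusted p = 0.0187), Vwf by 0.63 ± 0.21 (SE; limma adjusted p = 0.0300) and Treml1 by 0.71 ± 0.22 (SE; limma adjusted p = 0.0199). Every KO-labelled array was above every WT array for Vwf and for Selp, 2 of the 9 genes against 6.05% of all genes without overlap, whereas for F5 and Treml1 the groups overlapped. At 7 Gy 9 of 14 erythroid markers were higher and 16 of 18 hepatocyte markers lower in KO-labelled arrays. Of 12 neutrophil markers 8 were lower and 1 higher, and of 10 T cell markers 3 were lower and 0 higher. The part of these markers was not tested. Within slides 1 to 5 the KO-labelled array was higher on all 5 for F5, Vwf and Treml1, by 0.11 to 0.56, 0.34 to 0.46 and 0.32 to 0.93. The same held for Selp, by 0.10 to 0.72, which was not called. None of these calls was kept without WT 7 Gy replicate 1, and with slide as a block 1 was (F5, 0.35). With that block 2045 of all 15785 genes were higher and 3943 lower. F5 was also lost without WT 7 Gy replicate 2, and Vwf without WT 7 Gy replicates 3, 4 or 5. Over all genes the calls were 723 higher and 2808 lower, and 1353 higher and 1456 lower with the 75th percentile over all probes. Selp was called without KO-labelled 0 Gy replicate 5. These pairs share arrays with the responses above and are not separate evidence.

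**Figure D4:**
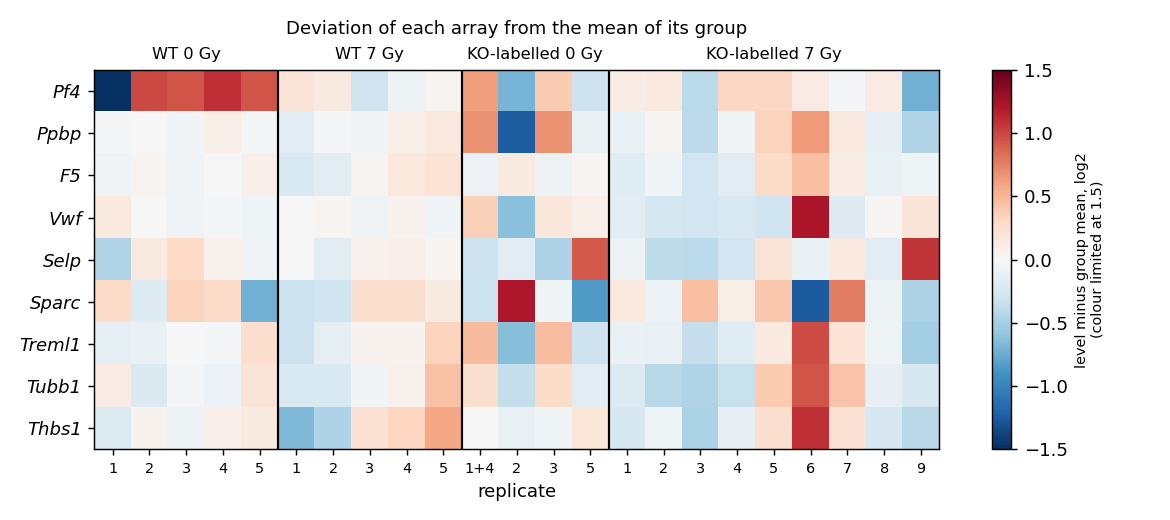
Level of each of the 9 genes minus its group mean (colour, log2, limited at 1.5) on each array (columns, replicate numbers within the 4 groups; 1+4 is the mean of both arrays). KO-labelled 7 Gy replicate 6 is high for 7 genes and low for Sparc, and KO-labelled 0 Gy replicate 2 is the reverse for most.

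The genes did not vary together in every array of a group. KO-labelled 7 Gy replicate 6 was the highest of its 9 arrays for 6 genes, Ppbp, F5, Vwf, Treml1, Tubb1 and Thbs1, and the lowest for Sparc. KO-labelled 0 Gy replicate 2 was the lowest of its group for 6 genes (Pf4, Ppbp, Vwf, Treml1, Tubb1 and Thbs1) and the highest for Sparc and F5. Replicate 9 at 7 Gy had the highest Selp and the lowest Pf4, Ppbp and Treml1. Sparc thus ran against most of the other genes on both arrays. Over the 23 samples, which differ in dose, Pearson's r was 0.95 between Tubb1 and Treml1 and between Tubb1 and Thbs1, and 0.94 between Vwf and Treml1. Sparc reached at most 0.80 with another of the genes, and Pf4, with its low array, 0.60.

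The non-member genes with the most similar profiles over the 23 samples were named for each gene, by Pearson's r. They were Plxna4, Itgb3 and Ly6g6f for Vwf (r = 0.98 each), where Itgb3 is the beta subunit of the fibrinogen receptor. Tubb1 was close to Prdx6 and Parvb (0.98 each), Treml1 close to Maged2 and Aqp1 (0.97 each) and Ppbp nearest Ap2m1, Plvap and Itga6 (0.97 each). Thbs1 was nearest Pdlim7, Ro60 and Slamf1 (0.96 each), F5 nearest Cpped1, Igtp and Galnt2 (0.96 each), and Pf4 nearest Inf2, Mif and Mrvi1 (0.97, 0.95 and 0.95). Selp was nearest Glb1, Trim47 and Saa3 (0.95, 0.94 and 0.94), and Sparc nearest Col1a2, Mgp and Ovol2 (0.95, 0.93 and 0.93), of which Col1a2 is a collagen chain.

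Other platelet genes were counted in lists by function. Beside each list stand the shares over all genes: 10.1% rose and 13.6% fell in WT, and 12.4% and 34.5% in KO-labelled arrays. Of 24 receptor and signalling genes tested, 12 rose and 1 fell in WT, and 22 rose and 1 fell in KO-labelled arrays, with a median change of 0.69 and 1.59. The largest rises there were P2rx1, the ATP-gated channel, by 2.31 and Gp1bb, a chain of the Vwf receptor, by 2.27 in KO-labelled arrays, and Ptgs1, cyclooxygenase 1, by 1.46 in WT. Tbxa2r, the thromboxane receptor, fell by 1.31 in WT. The difference between the responses was higher for 9 of these 24 and lower for 0, against 3.21% and 11.9% of all genes.

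Of 22 other granule cargo and membrane genes, 10 rose and 0 fell in WT and 14 rose and 1 fell in KO-labelled arrays. The largest change was in Itih4, by 7.82 in WT and 3.16 in KO-labelled arrays, an acute phase protein that the liver also makes, followed by Fn1, fibronectin, at 1.66 in WT and Pdgfa, a growth factor chain, at 2.0 in KO-labelled arrays. Of 27 other cytoskeleton genes, 7 rose and 2 fell in WT and 18 rose and 1 fell in KO-labelled arrays. Parvb, an integrin-linked adaptor, rose by 1.02 and 1.77. Tuba8, an alpha-tubulin, rose by 1.92 in KO-labelled arrays and Mylk, the myosin light chain kinase, by 1.10 in WT.

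Of 22 genes tested for making and secreting granules, 5 rose and 1 fell in WT, with a median change of 0.21, and 4 rose and 6 fell in KO-labelled arrays, with a median of 0.02. Over all genes 10.1% rose and 13.6% fell in WT (median -0.05), and 12.4% and 34.5% in KO-labelled arrays (median -0.26), and whether these genes differ from the other lists was not tested. Nbeal2, which alpha-granules need to form, rose by 1.19 and Lyst by 1.52 in WT, while in KO-labelled arrays the SNARE protein Snap23 rose by 2.05 and Hps3 fell by 2.21. Of 15 megakaryocyte transcription factors, 1 rose and 3 fell in WT and 6 rose and 3 fell in KO-labelled arrays. Gfi1b, a repressor of erythroid and megakaryocytic cells, rose by 1.11 and 1.95, Tal1 rose by 1.68 in KO-labelled arrays, and Hhex fell by 1.11 in WT.

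**Figure D5:**
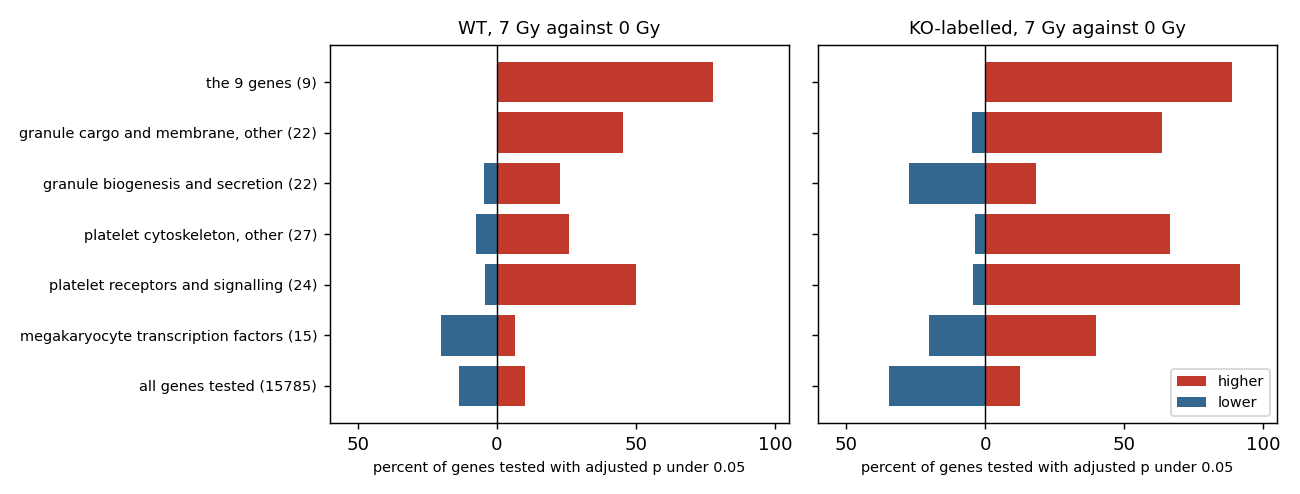
Percent of the genes tested that were higher (right of 0) or lower (left of 0) after 7 Gy at a limma adjusted p under 0.05, for the 9 genes, 5 lists of other platelet genes and all genes, in WT (left panel) and KO-labelled arrays (right panel); the number of genes tested is in brackets. The 24 receptor and signalling genes reach 22 higher in KO-labelled arrays, while granule biogenesis and secretion has 4 higher and 6 lower there.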

How the data were processed

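Blood RNA of 24 mouse samples was hybridised with Cy3 to one-colour Agilent arrays. Per the file headers, the authors extracted spot intensity values with Agilent Feature Extraction, version 12.0.2 per the submitters' processing notes, on probes placed in mm9. The authors' deposited log2 value table matched log2 of the processed signal, floored at 10, plus a constant per array, and served as an alternative; why the constants differ is not given in the sources used here. No table column lacked a sample.

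The log2 of the processed signal was taken relative to each array's 75th percentile over 7803 probes well above background on all arrays. Outlier spots were left out, and the filter on dim probes, which asked for 5 arrays or more well above background, left 19648 of 39429. The brightest probe stood for a gene, giving 15785 genes. One limma fit (3.58.1, R 4.3.3) of the 4 groups tested all genes, with Benjamini-Hochberg adjustment at 0.05, and was checked on simulated data. The number of arrays limits the precision. No label names the animal, so p-values measure the spread between samples, which may be technical.

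The 9 genes and all lists were chosen with earlier results of these data known. Named genes were the 9, the 3 nearest profiles of each, and the 2 called genes of a list with the largest change in a comparison. One gene that this rule names is not reported here. Alternatives covered scaling, background, filter, probe choice, blocks and left-out arrays.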

Additional observations from a re-analysis of the deposited data

Results flagged for a closer look

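In 7 of 36 gene and group combinations 1 array lay far from the others of its group, by a test that chance alone flags in about 1 in 20 groups. Pf4 on WT 0 Gy replicate 1 was 0.92, where the nearest array was 5.83. On the same array Vwf was the highest of its group at 1.74, beside 1.58 for the next. Ppbp on WT 0 Gy replicate 4 was 3.74, beside 3.65, in a group that otherwise spanned only 3.62 to 3.65. KO-labelled 7 Gy replicate 6 stood above its group for Vwf at 4.46 (next 3.44), Treml1 at 5.67 (next 4.89) and Thbs1 at 2.49 (next 1.64). Selp on KO-labelled 7 Gy replicate 9 was -2.11, with the next array at -2.99. The response to 7 Gy differed between the genotype labels for Vwf, by 1.08 with its brightest probe only, and for Thbs1, by 1.13. Each was larger in KO-labelled arrays in the limma test of the difference.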

How the results depend on the processing

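Counts below are of the 9 genes. In WT, 7 were called. The count was 2 with median scaling, 3 with close arrays averaged (chosen after seeing the data) and 2 without the 3 arrays high in hepatocyte transcripts. Over all 15785 genes, 703 rose and 1119 fell with median scaling, and 586 and 930 with close arrays averaged. Without the 3 arrays 755 rose and 893 fell. Close arrays had a ratio to repeat spots under 1.4 with at least 1 other array of their set. Some pairs within a set were above 1.4, such as KO-labelled 7 Gy replicates 2 and 8 at 1.81. The WT sets were WT 0 Gy replicates 2, 3 and 4, WT 7 Gy replicates 1 and 2, and WT 7 Gy replicates 3 and 4. KO-labelled 7 Gy replicates 1, 2, 4 and 8 were averaged too. The difference between the responses was called for 2. The count was 0 with median scaling, quantile normalization, normexp, the authors' value table, no filter, close arrays averaged or without the noisy arrays. It was 1 with slide as a block or without the 3 arrays. Of all 15785 genes, 1740 had a higher and 3386 a lower difference with slide as a block, and 119 and 844 without the 3 arrays. At 7 Gy, 3 were called. The count was 0 with median scaling, no filter or close arrays averaged. It was 1 with the authors' value table, only both groups compared or slide as a block. Over all genes, 767 of 12858 were higher and 835 lower with the authors' value table. Of 15785 genes, 520 were higher and 2100 lower with only both groups, and 2045 and 3943 with slide as a block. With the replicate block 7 were called in WT, 8 in KO-labelled arrays, 2 in the difference and 3 at 7 Gy. At 0 Gy 1 was called, where 0 were called without the block. It was Thbs1, at -0.71 (limma adjusted p = 0.0455). Over all genes this block called 2150 higher and 3024 lower in WT, and 3775 and 6239 in KO-labelled arrays. The calls were 2180 and 4023 in the difference, 2399 and 4411 at 7 Gy, and 179 and 118 at 0 Gy. The replicate number is also the slide number for replicates 1 to 5. Deviations from the group mean correlated at a median of 0.20 in pairs with the same number (-0.23 to 0.71, 18 of 30 over 0.1) and -0.03 in other pairs (50 of 180 over 0.1). Arrays of the same number were thus more alike at the median than other arrays. No label states a pairing. The fit without the block was kept as the main one, and counts with either block are given beside it. Leaving out each array in turn gave 6 to 7 in WT, 8 to 9 in KO-labelled arrays, 0 to 3 in the difference, 0 at 0 Gy and 0 to 4 at 7 Gy. Of 1795 values of single genes under the alternatives, 1685 kept their side of the threshold, 88 lost a call and 22 gained one; 56 changed sign, none of them a called value. The cause of these changes was not tested. Signal over background limits Selp, which was not well above it on 1 array, and both other Sparc probes.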

Other observations

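Of 18 tested ligands, receptors and processing partners of the 9 genes, 6 rose and 1 fell in WT after 7 Gy, and 8 rose and 1 fell in KO-labelled arrays. Over all genes 10.1% rose and 13.6% fell in WT, and 12.4% and 34.5% in KO-labelled arrays. F2, prothrombin, the substrate of the complex that holds factor V and a liver product, rose by 7.08 in WT and 2.15 in KO-labelled arrays. F2 is also on the list of hepatocyte markers. Proc, protein C, rose by 4.18 in WT, and F10, factor X, by 2.10 in KO-labelled arrays. The gene that fell was Cd36, a thrombospondin receptor, named after its values were seen: it fell by 3.02 in WT and by 1.96 in KO-labelled arrays on the log2 scale.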
